A study of Mus musculus with 60 samples.

Results

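Potassium channel genes were taken as the protein-coding genes of the RNA-Seq count tables whose Gencode symbol begins with *Kcn*. *Kcnj13* and *Kcne2*, which mark the choroid plexus, were set aside. Of 99 such symbols, 5 were not protein-coding and 2 were set aside, which left 92 members among 21534 protein-coding genes and 46480 genes in all. The members comprised 17 pore-forming subunits of voltage-gated channels, 10 modifier subunits, 8 *Kcnh* and 5 *Kcnq* genes and 11 accessory subunits. The others were 12 genes of the calcium- or sodium-activated channel families, grouped by symbol, 14 inward rectifiers, 14 two-pore channels and *Kcnrg*. Apart from *Kcnj13* and *Kcne2*, every protein-coding gene with such a symbol was a member. These 2 differed by -4.01 and -3.80 (log2 of dorsal over ventral), both higher in ventral tissue. Counts and rankings of members leave them out.

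The libraries came from whole tissue punched out of the dorsal or the ventral dentate gyrus (DG) of male C57BL6J mice. Siblings were weaned on day 22 and spent 8 weeks either in standard housing (SH, 3 mice to a cage) or in an enriched environment (EE, 12 mice to a large cage with running wheels, a bridge and toys changed every week), and were collected at 80 days of age. Each library pooled tissue of several mice, and the dorsal and ventral libraries of a pool came from the same animals. Dorsal SH and ventral SH were represented by 4 pools each (replicates 1, 2, 4 and 5) and dorsal EE and ventral EE by 5 pools each, so that 18 libraries were compared. The third SH pool was left out in both regions, as the study left out an SH pool and its sample sheet lists tissue of both sexes for this one. The labels name no transgene and no drug in any group.

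Potassium channels let potassium leave or enter the cell and so set the resting potential, the shape of the action potential and the rate of firing. Voltage-gated subunits open on depolarization, inward rectifiers and two-pore channels work near rest, and calcium- or sodium-activated channels follow the ions that enter during spikes. Granule cells, the principal neurons of the DG, are known for a very negative resting potential and sparse firing, both of which depend on such channels.

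Between 22919364 and 28301861 fragments per library were counted on genes. A member was tested where more than 10 fragments were counted in at least 2 libraries, which 78 of the 92 passed. The 14 others never exceeded 11 fragments in a library. They were *Kcna7*, *Kcna10*, *Kcne1*, *Kcne3*, *Kcnj1*, *Kcnj15*, *Kcnk5*, *Kcnk7*, *Kcnk15*, *Kcnk16*, *Kcnk18*, *Kcnmb3*, *Kcnn4* and *Kcnv2*. Differences are log2 fold changes with their standard error (SE) from edgeR's quasi-likelihood test, and FDR is its Benjamini-Hochberg adjusted p over 17040 tested genes. A gene was called at an FDR under 0.05 with a fold change of at least 20%. Levels of one gene across libraries are in CPM, counts scaled to library size after TMM normalization. Levels of different genes are compared only in FPKM, which is scaled for length. Whole tissue was sequenced, so fewer cells of a type and less RNA per cell cannot be told apart.

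Tissue markers moved with the regions and are given here once. The summed level of 5 granule cell markers was 807 to 993 CPM in the dorsal libraries against 409 to 610 CPM in the ventral ones, and 4 of the 5 were called higher in dorsal DG. The summed level of 8 choroid plexus markers was 23.3 to 211 CPM in dorsal and 391 to 1438 CPM in ventral libraries, with all 8 called higher in ventral DG. Markers of habenula and thalamus summed to 83.4 to 119.5 CPM in dorsal and 23.5 to 30.7 CPM in ventral libraries, and 4 of 5 were called higher in dorsal DG. Most of this sum was *Prkcd*, at a mean of 82.1 CPM in dorsal and 16.4 CPM in ventral libraries, while *Tcf7l2* was not called (FDR 0.18). *Gpr151* and *Pou4f1*, which define the habenula in that list, stayed at or below 4.35 and 1.105 CPM in every library. Among the interneuron markers 3 of 6 were called higher in ventral DG, as was *Calb2* of the 2 mossy cell markers, 1 of 5 astrocyte markers and 1 of 4 mural markers. Among 5 markers of CA pyramidal cells, 3 were called toward dorsal and 1 toward ventral DG. No marker of oligodendrocytes, their precursors, microglia or endothelial cells was called. The part of these lists in the differences between regions was not tested.

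*Kcnj2* and *Kcnj16* are neighbouring inward rectifier genes on chromosome 11, with no other protein-coding gene between them in the annotation, and they differed in opposite directions between the regions. *Kcnj16* lies at chr11:110968033-111027968 and *Kcnj2* at chr11:111066164-111076821 (mm10), both on the plus strand and 38.2 kb apart. *Kcnq5*, at chr1:21398403-21961942 on the minus strand, was the member with the largest difference toward ventral DG, and *Kcnj4*, at chr15:79483714-79505241 on the minus strand, was among the most abundant of those higher in dorsal DG. The 250 bases before the annotated start of these 4 genes (RefSeq, GRCm38.p6) are shown 5′ to 3′, because *Kcnj2*, *Kcnj16* and *Kcnq5* had the largest differences and *Kcnj4* stands for the abundant dorsal members. Capitals mark GC boxes, GGGCGG on either strand, and no other motif searched was found in these windows.
*Kcnj2*, chr11:111065914-111066163, plus strand: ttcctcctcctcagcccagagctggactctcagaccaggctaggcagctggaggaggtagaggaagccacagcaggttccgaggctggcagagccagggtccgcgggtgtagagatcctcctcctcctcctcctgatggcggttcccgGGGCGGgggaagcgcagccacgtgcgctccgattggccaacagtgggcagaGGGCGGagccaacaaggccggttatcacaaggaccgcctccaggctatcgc
*Kcnj16*, chr11:110967783-110968032, plus strand: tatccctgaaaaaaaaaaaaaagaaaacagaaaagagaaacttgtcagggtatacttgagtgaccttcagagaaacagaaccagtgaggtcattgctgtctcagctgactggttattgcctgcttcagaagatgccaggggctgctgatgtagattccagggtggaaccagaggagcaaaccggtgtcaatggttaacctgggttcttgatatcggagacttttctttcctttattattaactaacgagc
*Kcnq5*, chr1:21961943-21962192, minus strand: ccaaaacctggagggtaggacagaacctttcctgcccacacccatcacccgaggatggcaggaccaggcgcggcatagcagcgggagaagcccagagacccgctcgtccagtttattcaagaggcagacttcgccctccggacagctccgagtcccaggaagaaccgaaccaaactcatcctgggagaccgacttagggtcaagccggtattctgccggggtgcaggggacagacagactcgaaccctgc
*Kcnj4*, chr15:79505242-79505491, minus strand: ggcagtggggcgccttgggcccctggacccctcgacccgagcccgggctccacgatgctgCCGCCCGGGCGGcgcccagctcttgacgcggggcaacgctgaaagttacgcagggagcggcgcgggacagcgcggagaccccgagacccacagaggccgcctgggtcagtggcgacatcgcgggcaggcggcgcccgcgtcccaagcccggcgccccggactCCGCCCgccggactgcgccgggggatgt
The *Kcnj2* window held 2 GC boxes and 14 CpG dinucleotides at a GC content of 65.6%, and the *Kcnj4* window held 3 GC boxes and 35 CpG at 77.2%. *Kcnj16* had 3 CpG and a GC content of 42.8%, and *Kcnq5* had 14 CpG at 60.8%, neither with a GC box. RefSeq lists 4 starts for *Kcnj16* and 2 for *Kcnq5*, and the start shown is the one that matches the gene's start in Gencode.

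Promoter windows were matched for 67 of the 92 members. A GC box was present in 46.3% of them against 44.7% of the windows of 16347 protein-coding genes. The E-box CAGATG, of the type bound by NeuroD factors, was in 9 of the 67 windows (13.4%, against 12.3% of all windows). TGANTCA, the AP-1 site, was in 3 (4.48% against 6.10%), and the cyclic AMP response element TGACGTCA was in 0 of the 67 (against 2.09%). Both strands were searched, and none of these motifs contains another. The E-box was in 3 of the 18 matched members called higher in dorsal DG and in 0 of the 10 called higher in ventral DG.

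Transcripts of potassium channel genes spanned a wide range of levels, and a few genes carried much of the total. The mean FPKM over the 18 libraries exceeded 10 for 36 members, lay between 1 and 10 for 29 and was under 1 for 27. Of all 17040 tested genes, 6542 exceeded 10, beside 36 of the 78 tested members. *Kcnab2*, a cytoplasmic beta subunit of voltage-gated channels, was highest at 197 FPKM. *Kcnip2*, a calcium-binding partner of A-type channels, was at 73.6 FPKM. *Kcnk1*, a two-pore channel, reached 46.7 FPKM and *Kcnj4*, a strong inward rectifier, 39.3 FPKM. The 5 highest members made up 38.3% of the summed FPKM of all members. In the plot of level against region difference, *Kcnab2* and *Kcnip2* lie near the zero line and the largest differences belong to members of intermediate level.

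**Figure D1:**
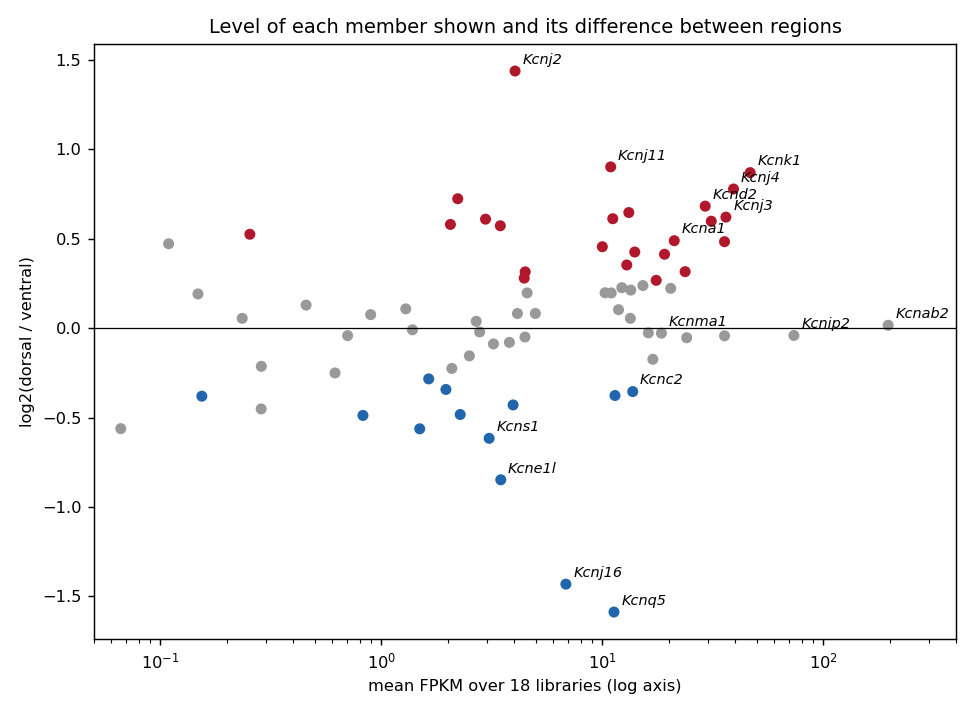
Each point is one of 74 tested members, with its mean FPKM over 18 libraries on a log axis and its log2 difference between dorsal and ventral DG on the vertical axis. Red points were called higher in dorsal, blue points higher in ventral and grey points were not called. *Kcnab2* at 197 FPKM sits at 0.02, while *Kcnq5* at 11.3 FPKM sits at -1.59.

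The first comparison asks which potassium channel genes differ between dorsal and ventral DG, over both housings. Of 78 tested members, 26 were called higher in dorsal DG, where 15.9% of all tested genes were called in that direction, and 13 were called higher in ventral DG, against 16.8% of all tested genes. In either direction 39 members were called, against 32.7% of all tested genes. Among the 36 tested members with a mean FPKM over 10, 17 were called toward dorsal and 3 toward ventral DG, against 11.7% and 13.4% of all tested genes at such a level. Among the other 42 tested members 9 were called toward dorsal and 10 toward ventral DG, against 18.6% and 18.9% of all tested genes at that level. Whether these counts differ between the levels was not tested. The median log2 difference of the tested members was 0.09, with 59.0% above zero, beside a median of -0.005 and 49.2% above zero over all tested genes.

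Separation was counted in the same 18 libraries as the calls, and so not independently of them. For 20 members every dorsal library exceeded every ventral library, a pattern shown by 9.51% of all tested genes, and for 7 members every ventral library exceeded every dorsal one, against 9.44% of all tested genes. The dorsal library was the higher of its pool in all 9 pools for 31 members and the lower in all 9 for 13, against 20% and 20.4% of all tested genes. The median size of the difference, regardless of direction, was 0.30 (log2) over the tested members and 0.19 over all tested genes. A fold change over 2 was reached by 3 members, *Kcnq5*, *Kcnj16* and *Kcnj2*, where 4.87% of all tested genes were called with such a difference.

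**Figure D2:**
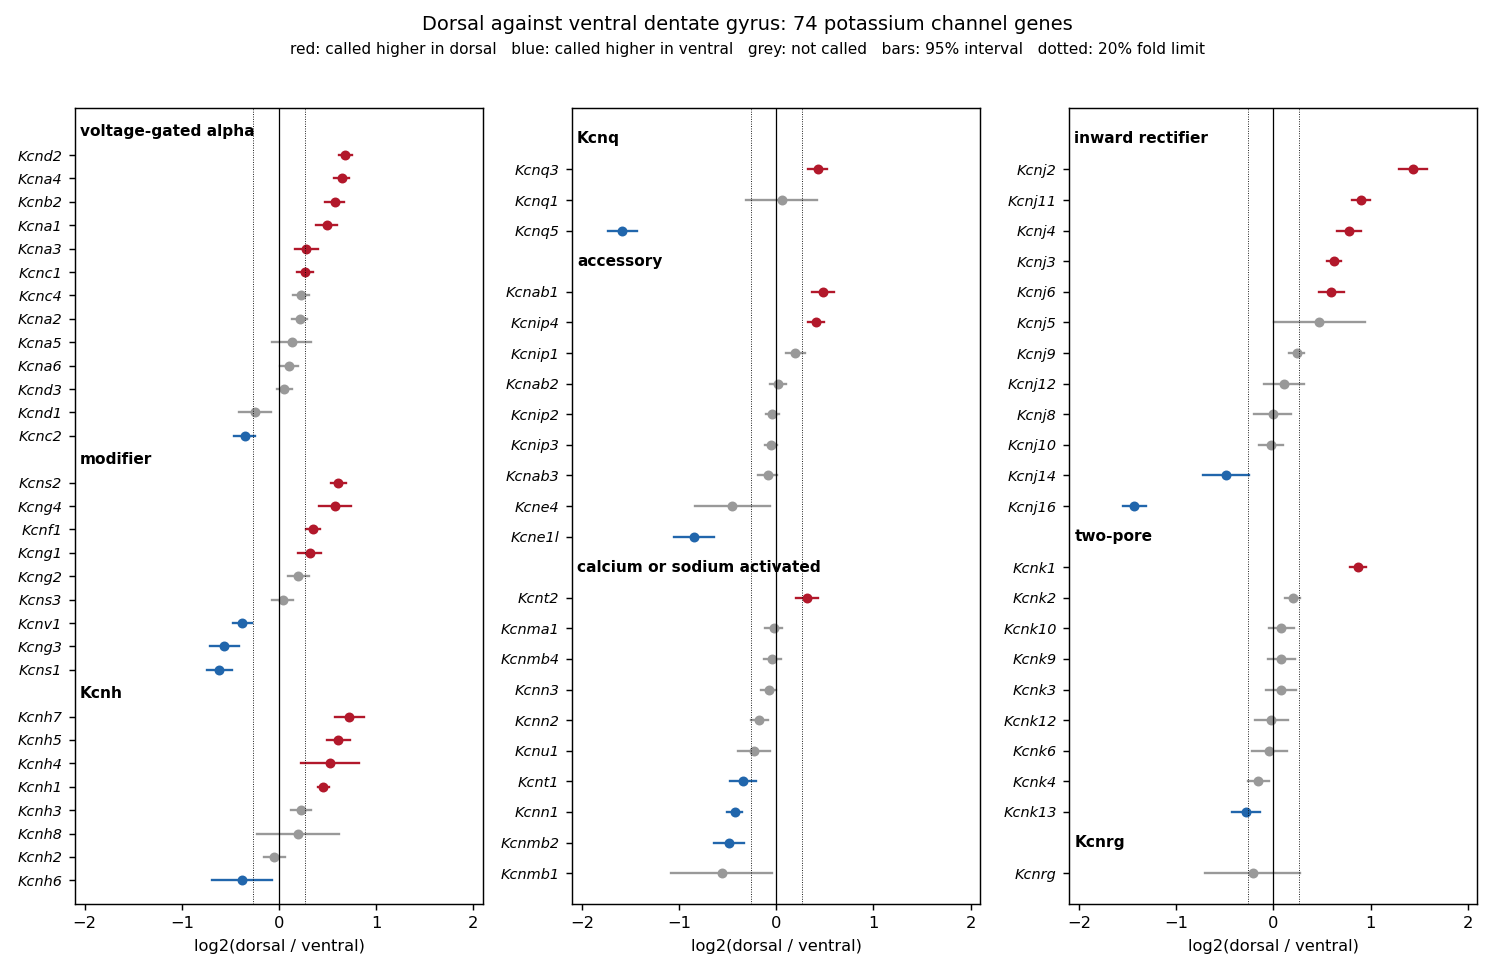
The log2 difference between dorsal and ventral DG is given for 74 tested members by class, with positive values higher in dorsal; bars are 95% intervals and dotted lines the 20% fold limit. Red members (24) were called higher in dorsal and blue members (13) higher in ventral DG, and the voltage-gated subunits and inward rectifiers lie mostly to the right.

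Inward rectifiers, which pass current best near and below the resting potential, held the largest difference toward dorsal DG. Of 14 members 12 were tested, 5 were called toward dorsal and 2 toward ventral DG, beside 15.9% and 16.8% of all tested genes. *Kcnj2*, a strong inward rectifier that stabilizes the resting potential, was at 36.5, 34.1, 31.0 and 31.1 CPM in the dorsal SH libraries and at 36.4, 34.5, 38.5, 41.4 and 39.6 CPM in the dorsal EE libraries. Its ventral values were 13.95, 14.4, 12.0 and 10.1 CPM in SH and 12.3, 12.3, 12.0, 18.0 and 13.6 CPM in EE. Every dorsal library thus lay above every ventral one, and the highest ventral value came from EE replicate 4. The difference was 1.44 on the log2 scale (SE 0.07, edgeR FDR 2.1e-13), a fold of 2.71. *Kcnj4*, a second strong inward rectifier, ranged from 109 to 132 CPM in dorsal libraries with a median of 119 and from 54.1 to 84.1 CPM in ventral libraries with a median of 66.8. Its difference was 0.78 (SE 0.06), again without overlap of the regions. The other strong inward rectifiers behaved otherwise, since *Kcnj12* stood at 0.11 (FDR 0.39) and *Kcnj14* was called higher in ventral DG at -0.49 (FDR 0.0012).

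*Kcnj16*, a glial and epithelial subunit that forms channels with *Kcnj10*, had the second largest difference toward ventral DG. It was measured at 15.6, 16.8, 16.8 and 14.0 CPM in dorsal SH and at 16.9, 15.1, 15.0, 13.8 and 13.6 CPM in dorsal EE. In ventral SH it was at 41.7, 44.1, 36.2 and 38.8 CPM, and in ventral EE at 46.4, 48.3, 42.4, 34.7 and 40.1 CPM. The lowest ventral value exceeded the highest dorsal one, and the difference was -1.43 (SE 0.06, edgeR FDR 1.3e-14). Its partner *Kcnj10*, the main potassium channel of astrocytes, spanned 81.7 to 112 CPM in dorsal and 80.8 to 115 CPM in ventral libraries, with a difference of -0.03 (FDR 0.74). The regions overlapped almost wholly for *Kcnj10*. Choroid plexus markers moved with the region as *Kcnj16* did. Across the ventral libraries their sum varied by 3.67 times, from 391 CPM in SH replicate 1 to 1438 CPM in EE replicate 3, while *Kcnj16* was at 41.7 CPM in the first and 42.4 CPM in the second. In dorsal SH replicate 1, whose sum was 9.05 times that of the lowest dorsal library, *Kcnj16* was at 15.6 CPM against 16.9 CPM there. Every ventral sum was above the highest dorsal one of 211 CPM, and the part of choroid plexus RNA in the difference of *Kcnj16* was not tested.

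Transmitters such as GABA and adenosine hyperpolarize neurons through G-protein-gated inward rectifiers. Of these 4 genes, 2 were called higher in dorsal DG, beside 15.9% of all tested genes. *Kcnj3* ranged from 196 to 229 CPM in dorsal libraries (median 218) and from 129 to 150 CPM in ventral ones (median 142), and *Kcnj6* from 75.6 to 105.4 CPM (median 84.0) and from 47.9 to 70.4 CPM (median 55.3). Neither gene showed overlap between the regions. Their differences were 0.62 (SE 0.04) and 0.60 (SE 0.07). *Kcnj9* had a difference of 0.24 (FDR 1.8e-05) that fell short of the fold limit although its libraries did not overlap either, and *Kcnj5* stood at 0.47 (FDR 0.094) at a mean of 0.109 FPKM.

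The subunits of ATP-sensitive channels, which couple metabolism to excitability, differed as a pair. *Kcnj11*, the pore subunit, was at 19.9 to 22.9 CPM in dorsal libraries (median 21.7) and at 10.1 to 12.5 CPM in ventral ones (median 11.3). All dorsal values exceeded all ventral ones, and the difference was 0.90 (SE 0.05, edgeR FDR 1.8e-13). *Abcc8*, which encodes the sulfonylurea receptor that assembles with *Kcnj11* and lies 3.76 kb from it on chromosome 7, had a mean of 49.7 CPM ± 4.23 (SD, n = 9) in dorsal and 23.4 CPM ± 3.29 (SD, n = 9) in ventral libraries, a difference of 1.08 (SE 0.07). The alternative pore *Kcnj8* and receptor *Abcc9* of these channels, which serve vascular muscle, stood at -0.01 (FDR 0.94) and 0.12 (FDR 0.25).

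**Figure D3:**
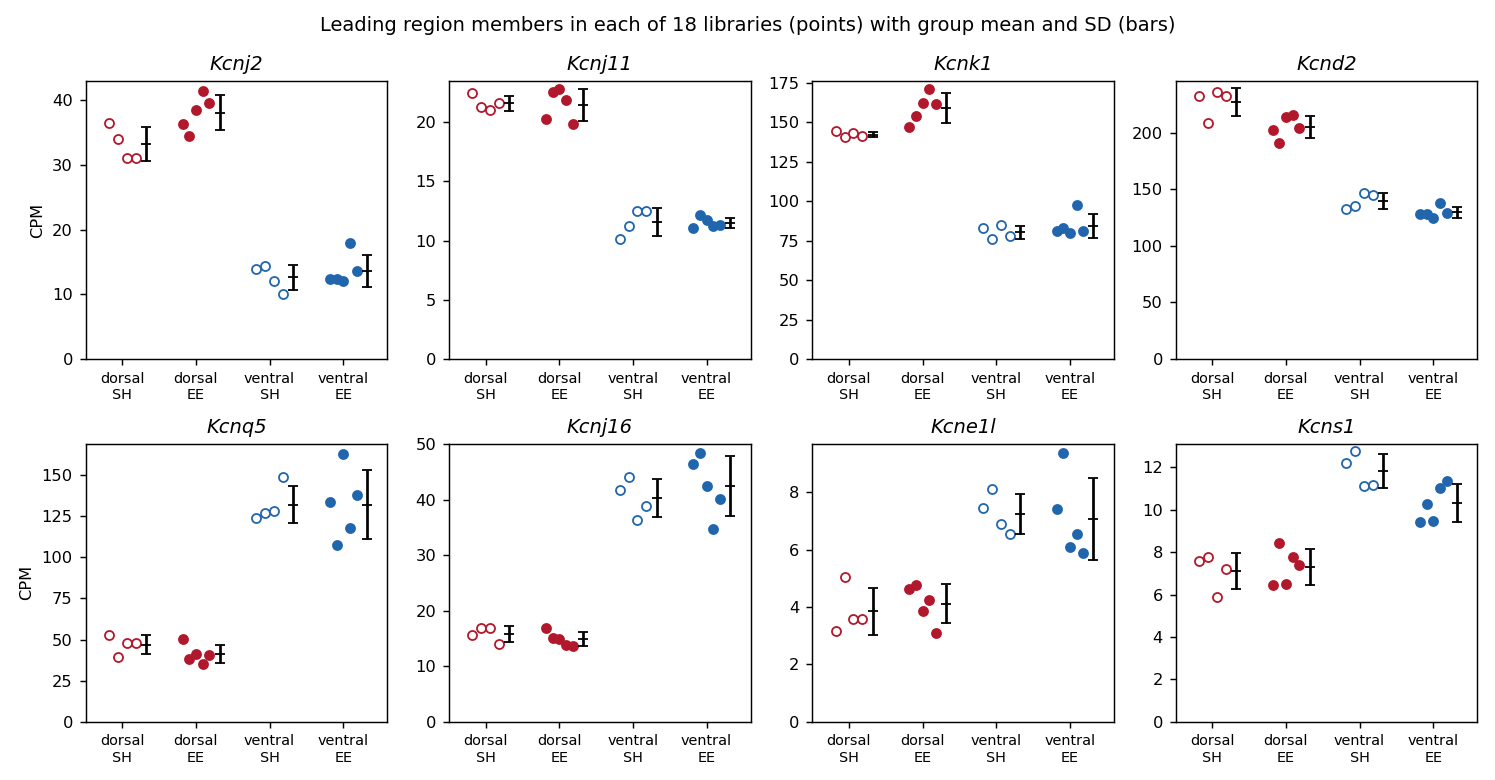
CPM of 8 members in each of 18 libraries, with open points for SH, filled points for EE, and group mean and SD as bars (n = 4 in SH and 5 in EE). *Kcnj2*, *Kcnj11*, *Kcnk1* and *Kcnd2* in the upper row are higher in every dorsal library, and *Kcnq5*, *Kcnj16*, *Kcne1l* and *Kcns1* in the lower row are higher in every ventral library.

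Two-pore channels carry background current that holds the membrane near rest. Of 14 members 9 were tested. Only *Kcnk1* was called higher in dorsal DG and only *Kcnk13* higher in ventral DG, beside 15.9% and 16.8% of all tested genes. *Kcnk1* was at 144, 141, 143 and 141 CPM in dorsal SH and at 147, 154, 162, 172 and 162 CPM in dorsal EE. In ventral SH it was at 83.1, 76.1, 84.8 and 78.1 CPM, and in ventral EE at 80.9, 83.0, 79.7, 97.4 and 81.0 CPM. The regions were far apart relative to their spread, with a difference of 0.87 (SE 0.04, edgeR FDR 4.0e-14). The granule cell marker sum was 1.68 times higher at the dorsal median than at the ventral one. Within the ventral libraries that sum varied by 1.49 times, and *Kcnk1* was at 79.7 CPM where it was lowest and at 84.8 CPM where it was highest. Ventral EE replicate 4 had nearly the highest sum (607 CPM, against 610 CPM in SH replicate 4), and *Kcnk1* had its highest ventral value there, 97.4 CPM. Some other members called higher in dorsal DG differed more between the ventral libraries with the lowest and the highest sum. Between the same 2 ventral libraries the level at the highest sum was 1.37 times that at the lowest for *Kcna3*, 1.32 times for *Kcng1* and 1.315 times for *Kcnj4*. Over the 26 members this ratio ran from 0.820 (*Kcnh7*) to 1.62 (*Kcnh4*), with a median of 1.09. The dorsal libraries with the lowest and the highest sum differed by 1.23 times in that sum. Between them the same ratio was 1.31 for *Kcnb2*, 1.22 for *Kcnq3*, 1.215 for *Kcnd2*, 1.18 for *Kcna1*, 1.17 for *Kcnj3* and 0.938 for *Kcnk1*. Over the 26 members it ran from 0.680 (*Kcng4*) to 1.31, with a median of 1.07. *Kcnj6* was at 0.717, *Kcnj4* at 0.895 and *Kcnj2* at 1.06. The part of the granule cell share in these differences was not tested. *Kcnk13*, a channel of microglia and neurons, was near the fold limit at -0.28 (FDR 0.0019). The other 7 tested two-pore channels lay between -0.16 (*Kcnk4*) and 0.20 (*Kcnk2*, FDR 0.00017) without reaching the limit.

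Of 17 pore-forming subunits of voltage-gated channels 15 were tested, 8 were called toward dorsal and 1 toward ventral DG, beside the 15.9% and 16.8% of all tested genes. *Kcnd2*, which carries the A-type current of dendrites that delays spikes and limits their backward spread, ranged from 191 to 236 CPM in dorsal (median 213) and from 125 to 147 CPM in ventral libraries (median 132). The regions did not overlap, and the difference was 0.68 (SE 0.04, edgeR FDR 3.3e-13). Its relatives *Kcnd3* and *Kcnd1* stood at 0.05 (FDR 0.26) and -0.25 (FDR 0.014, under the fold limit). *Kcna4*, an A-type subunit of axons and terminals, was at 72.2 to 79.5 CPM in dorsal and 44.2 to 54.8 CPM in ventral libraries, with medians of 75.3 and 46.7 CPM. *Kcna1*, a low-threshold axonal subunit, ranged from 104 to 132 CPM (median 124) in dorsal and from 71.4 to 94.8 CPM (median 88.6) in ventral libraries. Both were separated completely by region, with differences of 0.65 (SE 0.04) and 0.49 (SE 0.05).

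The remaining *Kcna* genes moved less. *Kcna3* was called at 0.28, just inside the fold limit, *Kcna2* stood at 0.21 (FDR 0.00011, under the limit), and *Kcna6* and *Kcna5*, the neighbours of *Kcna1* on chromosome 6, stood at 0.10 (FDR 0.056) and 0.13 (FDR 0.33). *Kcnb2*, a delayed rectifier of soma and dendrite, was called at 0.57 (SE 0.05), with every dorsal library above every ventral one. The *Kcnc* genes, whose fast channels allow high firing rates, were split. *Kcnc1* was called higher in dorsal DG at 0.27, whereas *Kcnc2* was called higher in ventral DG at -0.35 (SE 0.06), with 79.2 to 108 CPM in dorsal and 102 to 134 CPM in ventral libraries. The ranges of *Kcnc2* overlapped, yet the ventral library was the higher in all 9 pools. *Pvalb*, *Sst* and *Vip*, markers of interneurons, which are known to use *Kcnc2*, were the 3 of 6 interneuron markers called higher in ventral DG. Toward dorsal DG lay *Gad1* at 0.21 (FDR 0.0059) and *Gad2* at 0.11 (FDR 0.12), both under the fold limit. *Slc32a1* stood at -0.07 (FDR 0.34). The sum of the 6 markers had a median of 502.7 CPM in dorsal and 504.5 CPM in ventral libraries. The part of interneurons in the difference of *Kcnc2* was not tested. *Kcnc4* stood at 0.23, under the fold limit.

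Modifier subunits form no channel alone and tune the *Kcnb* channels they join. Of 10 members 9 were tested, 4 were called toward dorsal and 3 toward ventral DG, beside 15.9% and 16.8% of all tested genes. *Kcns2* had 59.5 to 73.5 CPM in dorsal (median 67.9) and 39.4 to 49.1 CPM in ventral libraries (median 44.0), a difference of 0.61 (SE 0.04). *Kcng4*, *Kcnf1* and *Kcng1* were called at 0.58, 0.35 and 0.31. *Kcns1* was the reverse of *Kcns2*, with 5.89 to 8.41 CPM in dorsal (median 7.41) and 9.43 to 12.8 CPM in ventral libraries (median 11.1), a difference of -0.62 (SE 0.06, edgeR FDR 3.6e-08). Both genes were separated without overlap, in opposite directions. *Kcng3* and *Kcnv1* were called higher in ventral DG at -0.56 (SE 0.08) and -0.38 (SE 0.05). *Kcnv1*, at 42.3 to 54.3 CPM in dorsal and 55.0 to 70.8 CPM in ventral libraries, was again without overlap, and *Kcng2* and *Kcns3* stood at 0.20 (FDR 0.0038) and 0.04 (FDR 0.57).

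All 8 *Kcnh* genes were tested, 4 were called toward dorsal and 1 toward ventral DG, beside 15.9% and 16.8% of all tested genes. *Kcnh7*, of the erg branch that slows firing after a burst, ranged from 30.4 to 42.6 CPM in dorsal and from 19.5 to 29.9 CPM in ventral libraries, with medians of 35.0 and 21.1 CPM. *Kcnh5*, of the eag branch, ranged from 15.0 to 20.1 CPM and from 9.25 to 13.7 CPM. The regions were separated for both, with differences of 0.72 (SE 0.08) and 0.61 (SE 0.06). *Kcnh1*, the other eag gene, and *Kcnh4* were called at 0.46 and 0.52. *Kcnh3*, the most abundant *Kcnh* gene at 20.4 FPKM, stood at 0.22 (FDR 0.00085), under the fold limit, and *Kcnh2* at -0.05 (FDR 0.45). *Kcnh6* was called at -0.38 with an FDR of 0.045 at a mean of 0.154 FPKM, and this call was lost with DESeq2, with expected counts, with either other filter on low values and without each of several pools. *Kcnh8* stood at 0.19 (FDR 0.46).

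*Kcnq3* and *Kcnq5* encode subunits of the M current, a slow brake on firing that muscarinic transmission releases. All 5 *Kcnq* genes were tested, 1 was called toward dorsal and 1 toward ventral DG, beside 15.9% and 16.8% of all tested genes. *Kcnq5* was at 52.8, 39.2, 47.95 and 47.6 CPM in dorsal SH and at 50.3, 38.3, 41.35, 35.3 and 40.5 CPM in dorsal EE. In ventral SH it was at 124, 127, 128 and 149 CPM, and in ventral EE at 134, 108, 163, 118 and 138 CPM. The lowest ventral library was above the highest dorsal one by a wide margin, and the difference was -1.59 (SE 0.08, edgeR FDR 6.6e-14), or 3.004 times. Within the ventral libraries the 2 highest *Kcnq5* values fell in the 2 libraries with the most choroid plexus RNA. They were 163 CPM where the marker sum was 1438 CPM and 149 CPM where it was 1108 CPM. At the next highest sum, 933 CPM in EE replicate 4, *Kcnq5* was at 118 CPM. Its lowest ventral value, 108 CPM, fell where the sum was 421 CPM. In the library with the lowest sum, 391 CPM, *Kcnq5* was at 124 CPM, and this sum was itself above the highest dorsal one of 211 CPM. The part of choroid plexus RNA in the difference of *Kcnq5* was not tested. *Kcnq3* went the other way, with 180 to 231 CPM in dorsal (median 214) and 135 to 167 CPM in ventral libraries (median 162), a difference of 0.43 (SE 0.05). *Kcnq1* stood at 0.05 (FDR 0.82).

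**Figure D4:**
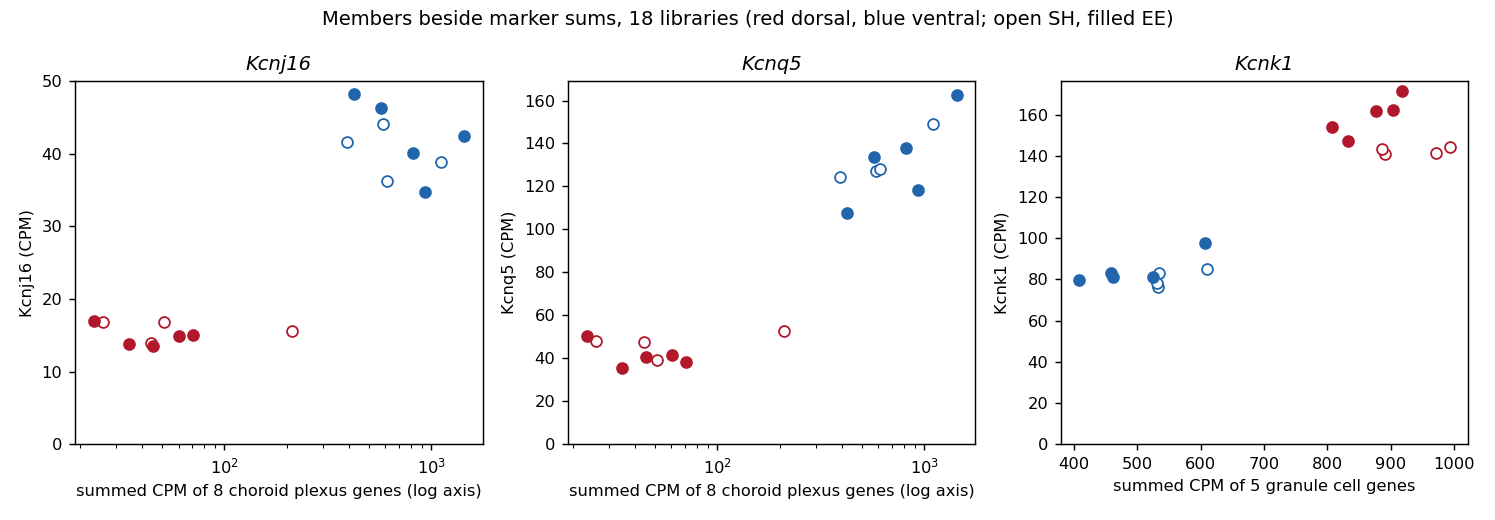
*Kcnj16* and *Kcnq5* in CPM against the summed CPM of 8 choroid plexus markers (log axis), and *Kcnk1* against the summed CPM of 5 granule cell markers, one point per library. Red is dorsal, blue ventral, open SH and filled EE. *Kcnj16* was between 34.7 and 48.3 CPM in the ventral libraries. Their choroid plexus sums, 391 to 1438 CPM, all lay above those of the dorsal libraries.

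Among accessory subunits, 9 of 11 members were tested. Of these, 2 were called toward dorsal and 1 toward ventral DG, beside 15.9% and 16.8% of all tested genes. *Kcnab1*, a beta subunit that speeds the inactivation of *Kcna* channels, ranged from 126 to 170 CPM in dorsal and from 92.1 to 126.5 CPM in ventral libraries, and *Kcnip4*, a partner of *Kcnd* channels, from 52.2 to 64.2 CPM and from 35.1 to 47.9 CPM. *Kcnab1* overlapped by the narrowest margin, *Kcnip4* did not, and the differences were 0.48 (SE 0.06) and 0.41 (SE 0.04). The dominant forms were close to zero. *Kcnab2* spanned 719 to 828 CPM in dorsal and 698 to 873 CPM in ventral libraries, and the differences were, for *Kcnab2*, 0.02 (95% interval -0.07 to 0.10) and, for *Kcnip2*, -0.04 (95% interval -0.11 to 0.02). *Kcnip3*, *Kcnab3* and *Kcnip1* stood at -0.05, -0.09 and 0.20 without a call, and *Kcne4* at -0.45 (FDR 0.052). *Kcne1l*, a single-span subunit encoded on the X chromosome, was at 3.08 to 5.06 CPM in dorsal (median 3.86) and 5.89 to 9.37 CPM in ventral libraries (median 6.89). Its regions did not overlap, with a difference of -0.85 (SE 0.10, edgeR FDR 3.7e-07). At the lowest and highest choroid plexus sum among ventral libraries *Kcne1l* was at 7.45 and 6.07 CPM, and the part of choroid plexus RNA was not tested.

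Channels opened by calcium or sodium shape the afterhyperpolarization. Of the 12 members of these families, grouped by symbol, 10 were tested. Of these, 1 was called toward dorsal and 3 toward ventral DG, beside the 15.9% and 16.8% of all tested genes. *Kcnma1*, the pore of the large-conductance channel, and its main neuronal auxiliary subunit *Kcnmb4* stood at -0.03 (95% interval -0.11 to 0.06) and -0.04 (95% interval -0.13 to 0.05). The auxiliary subunit *Kcnmb2* was called at -0.48 (SE 0.08), with 3.19 to 4.91 CPM in dorsal and 4.94 to 7.19 CPM in ventral libraries. *Kcnn1*, a small-conductance channel, was at 15.0 to 18.7 CPM in dorsal and 20.6 to 23.8 CPM in ventral libraries, a difference of -0.43 (SE 0.04), and its relatives *Kcnn2* and *Kcnn3* stood at -0.17 (FDR 0.0015) and -0.08 (FDR 0.10). Both called genes were separated without overlap. The sodium-activated channels were split, with *Kcnt2* called higher in dorsal DG at 0.32 (SE 0.06) and *Kcnt1* higher in ventral DG at -0.34 (SE 0.07). *Kcnt1* ranged from 7.46 to 8.99 CPM in dorsal and from 8.27 to 12.4 CPM in ventral libraries, with overlap. *Kcnu1* and *Kcnmb1* stood at -0.23 (FDR 0.025) and -0.56 (FDR 0.075). *Kcnrg*, a regulator of potassium channels at a mean of 0.286 FPKM, stood at -0.21 (FDR 0.48).

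The members nearest the fold limit were *Kcnk13* at -0.28, *Kcna3* at 0.28 and *Kcnc1* at 0.27 inside it, and *Kcnd1* at -0.25, *Kcnj9* at 0.24 and *Kcnc4* at 0.23 outside it. In all, 12 further members had an FDR under 0.05 with a smaller fold change. At any fold change, 54 of the 78 tested members had an unadjusted edgeR p under 0.05, against 62.2% of all tested genes.

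Partners of the channels that carry other names were examined from a list of 25 genes, of which 23 were tested and *Lrrc26* and *Lrrc52* were not. Of these, 8 were called toward dorsal and 2 toward ventral DG, beside 15.9% and 16.8% of all tested genes. The median difference of the 23 was 0.09. *Dpp6* and *Dpp10*, alternative auxiliary subunits of *Kcnd* channels, went in opposite directions. *Dpp6* had a mean of 359 CPM ± 20.6 (SD, n = 9) in dorsal and 261 CPM ± 24.4 (SD, n = 9) in ventral libraries, and *Dpp10* 31.2 CPM ± 1.23 and 54.3 CPM ± 2.04, so that the differences were 0.46 (SE 0.05) and -0.80 (SE 0.03). *Amigo1*, an adhesion protein that accompanies delayed rectifiers, was called at 0.34 and its relative *Amigo2* at -0.88. *Lrrc55*, an auxiliary protein of *Kcnma1* channels, was called at 1.43 (SE 0.07) while *Kcnma1* itself was near zero. *Lgi1* and *Adam22*, a secreted protein and its receptor that associate with *Kcna1* complexes, were called at 0.42 and 0.29, and *Cntn2* and *Ank3*, which anchor channels on the axon, at 0.40 and 0.35.

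The comparison between regions was also made within each housing. In SH 37 members were called, against 28.3% of all tested genes, and in EE 41, against 29.8%. By direction, 26 were called toward dorsal DG in SH (14.1% of all tested genes) and 11 toward ventral DG (14.2%), and in EE 26 (14.1%) and 15 (15.8%). All 39 members called over both housings had one sign in SH and in EE. The comparison over both housings averages the SH and EE differences, so a shared sign was largely set by the selection. *Kcnq5* differed by -1.49 in SH and -1.68 in EE, *Kcnj16* by -1.35 and -1.51, and *Kcnj2* by 1.40 and 1.48. The difference between these pairs of values is the interaction, and it was not called for any member.

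The second comparison asks which of these genes differed between EE and SH in dorsal DG. A single member of the 78, *Kcng3*, was called, against 0.634% of all tested genes (0.387% higher and 0.246% lower in EE). *Kcng3*, a modifier subunit of *Kcnb* channels at a mean of 1.49 FPKM, was at 6.13, 5.84, 5.38 and 4.91 CPM in dorsal SH and at 4.38, 4.18, 3.86, 3.63 and 3.74 CPM in dorsal EE. Every EE library lay below every SH library. It fell by 0.49 on the log2 scale (SE 0.11, edgeR FDR 0.036). The call rests on individual libraries, since the FDR was between 0.0925 and 0.165 without SH replicate 1, 2 or 4 or EE replicate 3 or 4, and was 0.056 with the third SH pool included. In ventral DG, where it was the more abundant, *Kcng3* was at 6.78, 7.63, 7.98 and 7.31 CPM in SH and 6.02, 5.43, 6.23, 6.34 and 8.34 CPM in EE, a difference of -0.19 (FDR 0.71).

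Below the fold limit, 2 more members reached an FDR under 0.05 in dorsal DG. *Kcnf1*, also a modifier subunit, was at 86.7, 78.8, 85.0 and 85.2 CPM in dorsal SH and at 75.5, 68.0, 65.7, 67.9 and 74.9 CPM in dorsal EE. *Kcnip3*, a calcium-binding partner of *Kcnd* channels that also acts as a transcriptional repressor, was at 70.7, 70.2, 68.4 and 66.8 CPM in dorsal SH and at 77.9, 82.4, 77.5, 81.2 and 74.2 CPM in dorsal EE. In both genes the housings did not overlap, *Kcnf1* lower and *Kcnip3* higher in EE. The differences were -0.25 (SE 0.05, edgeR FDR 0.014) and 0.19 (SE 0.04, edgeR FDR 0.040). The granule cell marker sum was 886 to 993 CPM in dorsal SH and 807 to 917 CPM in dorsal EE, and its part in these differences was not tested.

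In total 13 members had an unadjusted p under 0.05 in dorsal DG, against 8.81% of all tested genes. All EE libraries exceeded all SH libraries for 5 members, among them *Kcnip3*, *Kcnk6*, *Kcnn1* and *Kcnk1*, against 2.21% of all tested genes, and lay below them for *Kcnf1* and *Kcng3*, against 1.78%. *Kcnn1* was at 15.1, 15.0, 15.3 and 15.1 CPM in dorsal SH and at 16.5, 17.2, 17.4, 16.0 and 18.7 CPM in dorsal EE, with a difference of 0.18 (SE 0.06, FDR 0.19). *Kcnk1* differed by 0.16 (SE 0.06, FDR 0.29) in the libraries given above. These values did not pass the test.

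**Figure D5:**
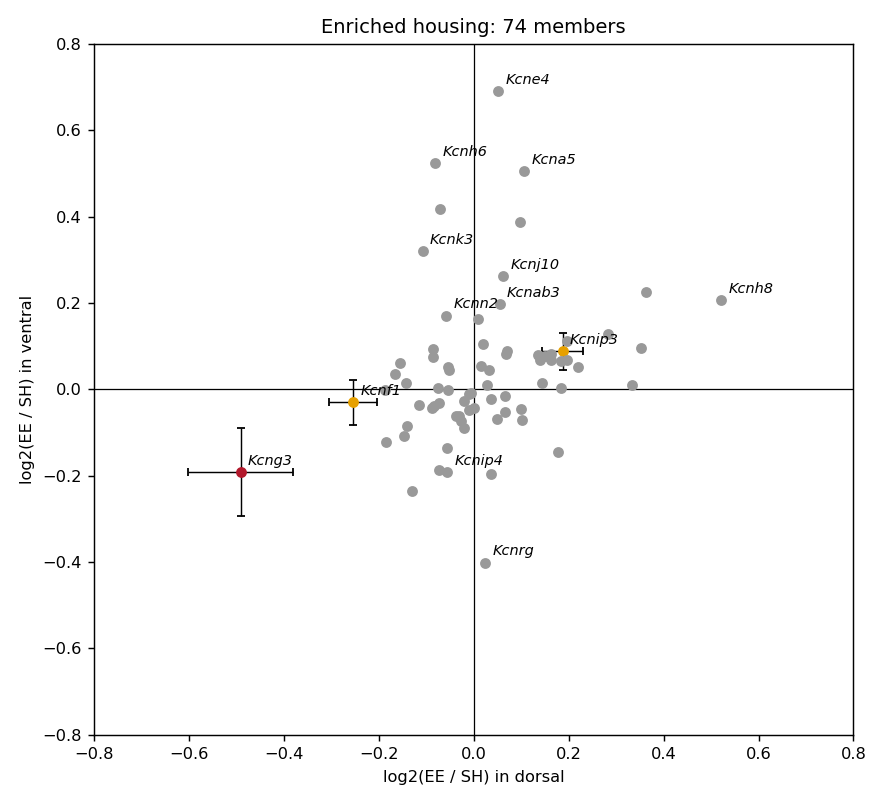
Log2 fold change of EE over SH in dorsal DG (horizontal) and in ventral DG (vertical) for 74 tested members. Red marks *Kcng3*, called in dorsal DG at -0.49, and orange marks *Kcnf1* and *Kcnip3*, which had an FDR under 0.05 there below the fold limit; error bars are SE, and members in grey were not called.

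In ventral DG 0 of 78 members were called for EE by edgeR, against 0.241% of all tested genes (0.182% toward EE and 0.0587% toward SH), and 14 had an unadjusted p under 0.05, against 7.58%. DESeq2 called 0 as well. The smallest p belonged to *Kcna5*, *Kcnip4*, *Kcnj10* and *Kcnab3*. *Kcna5*, a delayed rectifier at a mean of 0.456 FPKM, was at 1.34, 1.202, 0.973 and 1.10 CPM in ventral SH and 1.59, 1.45, 1.88, 1.65 and 1.63 CPM in ventral EE. Every EE library lay above every SH library, yet the difference of 0.51 (SE 0.14) had an FDR of 0.23. *Kcnj10* was at 92.3, 100.9, 84.0 and 80.8 CPM in ventral SH and 115, 110, 111, 88.3 and 112 CPM in ventral EE. Here 4 of the 5 EE libraries were above all SH libraries, and the difference was 0.26 (SE 0.09, FDR 0.36). *Kcnip4* and *Kcnab3* stood at -0.19 (FDR 0.31) and 0.20 (FDR 0.41). Complete separation upward was seen for 4 members, among them *Kcna5*, *Kcnk3* and *Kcnn2*, against 1.28% of all tested genes, and downward for 0 members, against 1.17%.

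The difference between the effects of EE in the regions was tested as an interaction, and 0 of 78 members were called by edgeR, against 0.00587% of all tested genes, with 5 at an unadjusted p under 0.05, against 3.25%. DESeq2 also called 0. *Kcnf1* had the smallest p, with a difference of -0.22 (SE 0.07, unadjusted edgeR p 0.0054, FDR 0.9999), followed by *Kcnk3* at -0.43 (SE 0.16) and *Kcnn2* at -0.23 (SE 0.09). The fall of *Kcng3* in dorsal DG was likewise not shown to differ from its value in ventral DG, with an interaction of -0.30 (SE 0.15, FDR 0.9999). For members called between the regions, the 95% intervals of the EE effect can be narrow. They were -0.13 to 0.11 in dorsal and -0.14 to 0.12 in ventral DG for *Kcnj11*, and -0.12 to 0.17 and -0.14 to 0.16 for *Kcna1*. Not every such member was centred on zero. *Kcnd2* was lower in EE by 0.15 in dorsal and 0.11 in ventral DG (unadjusted edgeR p 0.0078 and 0.043), without a call. Among the 23 tested partner genes, EE gave 1 call in dorsal and 0 in ventral DG, against 0.634% and 0.241% of all tested genes. The call was *Lrrc55* at 0.38 (SE 0.09, edgeR FDR 0.042), with a mean of 13.0 CPM ± 1.37 (SD, n = 4) in SH and 17.0 CPM ± 0.804 (SD, n = 5) in EE.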

How the data were processed

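Total RNA from punched dorsal and ventral DG was sequenced as stranded, paired-end libraries. Per the labels and the methods of the study, the authors trimmed reads with Trim Galore 0.4.0, aligned them to mm10 with STAR 2.5.1b and deposited counts per gene. They also deposited expected counts, TPM and FPKM from RSEM 1.2.30. Depth was 22919364 to 28301861 counted fragments per library, and rows that name no gene held 32.6 to 40.9% of fragments and were left out.

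Reverse-strand counts of 18 libraries were fitted with edgeR 4.0.16 (R 4.3.3) by the quasi-likelihood test, with TMM normalization, 4 group means and only genes whose counts exceeded 10 in 2 or more libraries. Contrasts were dorsal against ventral over both housings and within each, EE against SH in each region, and their interaction. Calls needed a fold change of 20% or more at an FDR under 0.05 (FDR alone for the interaction). FPKM served for levels between genes. The FPKM sum was 1.48 to 2.71 times the TPM sum depending on the library, so that levels read higher in FPKM than in TPM. *Kcnab2*, for example, had a mean of 197 FPKM and 104 TPM. Dorsal and ventral libraries of a pool came from the same mice, as the study states, and their deviations from group means correlated at -0.084 to 0.189 over 9 pools.

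Members and gene lists were chosen with earlier results of these data known. Named members were the 10 with the largest called difference in each direction at a TPM over 1 in at least 3 samples, the called members and the 4 or 3 smallest p-values of the EE comparisons and the interaction, the 4 genes *Kcna1*, *Kcnd2*, *Kcnj3* and *Kcnk1*, and the most abundant member of each class. Others are given with their difference. The values of 4 tested members are not reported here, but they stay in the fit and in all counts. Replicates were pools of mice. On simulated counts the procedure recovered 99.5% of 1.5-fold and 72.0% of 1.2-fold differences between regions, and 94.0% and 36.0% for EE in dorsal DG. The 1.2-fold shares were counted at an FDR under 0.05 without the fold limit that calls needed. The changed genes were drawn only from those with higher counts, so these shares do not cover members at low levels. Alternatives were RLE size factors, DESeq2 1.42.0, other filters, all 20 samples, a replicate block, unstranded counts, rounded expected counts, a joint test of both housings and leaving out each pool. Promoter windows came from RefSeq.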

Additional observations from a re-analysis of the deposited data

Results flagged for a closer look

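Among 132 groups of 4 or 5 libraries examined, 11 (8.33%) held a library whose gap to its nearest neighbour was large for the group's range, where chance gives about 1 in 20. In dorsal SH replicate 2, *Kcnab3* was at 7.651 CPM (others 8.228 to 8.327), *Kcnd2* at 208.1 CPM (others 232.0 to 235.7) and *Kcnv1* at 49.32 CPM (others 52.67 to 53.2), so that this library was the low one for 3 of the 11. In ventral EE replicate 4, *Kcnj2* was high at 17.96 CPM (others 12.03 to 13.6), *Kcnk1* was high at 97.42 CPM (others 79.66 to 82.95) and *Kcnj10* was low at 88.33 CPM (others 109.8 to 115.3). Ventral SH replicate 5 was high for *Kcnq5* at 149.0 CPM (others 124.2 to 128.0) and low for *Kcnh5* at 10.92 CPM (others 11.65 to 11.75). *Kcnab3* was low in dorsal EE replicate 1 at 7.772 CPM (others 8.531 to 8.781), *Kcnj3* low in dorsal EE replicate 2 at 195.7 CPM (others 218.0 to 226.6), and *Kcnt1* high in dorsal SH replicate 1 at 8.785 CPM (others 8.391 to 8.414). For *Kcnj2*, *Kcnk1*, *Kcnd2*, *Kcnj3* and *Kcnq5* the library still lay on its own region's side of every library of the other region.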

How the results depend on the processing

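Of 139 recomputed counts, 132 were within 1.5 times their reported value, and the 7 others all concern members called for EE in dorsal DG. That count was 0 with all 20 samples and ranged from 0 to 2 without one pool at a time. It was 0 without SH replicate 1, SH replicate 4, EE replicate 3 or EE replicate 4, and 2 without EE replicate 1 or EE replicate 5, where *Kcnf1* passed the fold limit at -0.28 and -0.27. Without SH replicate 2 *Kcnf1* was called at -0.28 in place of *Kcng3*, and the cause was not tested. Without one pool at a time, members higher in dorsal DG numbered 25 to 27 and those higher in ventral DG 11 to 14, and 36 to 39 of the 39 calls held under the alternatives, with 0 changes of sign. *Kcnc1*, *Kcnk13*, *Kcna3* and *Kcnh6* were lost in some fits that left out a pool, and *Kcnh4*, *Kcnh6* and *Kcnj14* were not tested under the filter on TPM. Values near zero that changed sign were *Kcnab2* at -0.0024 with all 20 samples, and *Kcnmb4* at 0.0799 and *Kcnrg* at 0.1154 with unstranded counts.

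With the pool as a replicate block, all 39 region calls held and *Kcne4* was added. With the replicate number as a block across housings, *Kcng3* was at -0.48 (edgeR FDR 0.047), and over all genes 172 and 87 were called for EE in dorsal and ventral DG, against 108 and 41 without it and 142 and 75 with DESeq2. The same-number correlations between EE and SH libraries were 0.0815 to 0.175, not all over 0.1, so that these numbers were not taken as pairs. On simulated counts 36.0% of 1.2-fold EE differences in dorsal DG were recovered when the FDR alone was used, without the fold limit. The 14 untested members were too low to compare.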
